A study of Mus musculus with 9 samples.

Results

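A set of 10 genes of the bone morphogenetic protein (BMP) pathway were followed in mouse muscle: the inhibitor-of-DNA-binding genes Id1, Id2, Id3 and Id4, the inhibitory Smads Smad6 and Smad7, the BMP Smad gene Smad9, the receptor gene Bmpr1a, the ligand gene Bmp4 and the decoy receptor gene Bambi. They are 10 of the 56805 genes in the deposited table, picked by symbol. The set was chosen by values measured in these same libraries, and its rule does not say which. The genotype difference of Id1 was already known, so the values of Id1 below are a description and not independent evidence. RNA came from the left tibialis anterior, a fast-twitch muscle of the shin, of male mice aged 13 months. The 3 genotypes were Svil-Mut (replicates 1, 2 and 4), Svil-KO (replicates 1, 3 and 4) and wild type, WT (replicates 1, 3 and 4), with 3 mice each and 1 library per mouse. Svil encodes supervillin, an actin- and membrane-associated protein. The labels name the genotypes only: they describe no allele, strain background or Cre driver, and name no treatment for any group.

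BMP ligands bind paired receptor kinases, which phosphorylate Smad1, Smad5 and Smad9. These join Smad4 and switch on target genes, among them the Id genes and the inhibitors Smad6, Smad7 and Bambi, which dampen the signal. Id proteins bind basic helix-loop-helix (bHLH) partners and keep them off DNA, and in skeletal muscle the pathway is known for opposing loss of muscle mass.

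The 4 Id genes resemble each other, so the stretch in which they are most alike is shown to let the similarity be seen. Each line is a window of 120 coding bases read 5′ to 3′ from the GENCODE M21 transcript of the gene (GRCm38), with capitals where all 4 genes have the same base. The window covers coding bases 178 to 297 of Id1 (chromosome 2, plus strand), 109 to 228 of Id2 (chromosome 12, minus strand), 124 to 243 of Id3 (chromosome 4, plus strand) and 196 to 315 of Id4 (chromosome 13, plus strand).

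Id1: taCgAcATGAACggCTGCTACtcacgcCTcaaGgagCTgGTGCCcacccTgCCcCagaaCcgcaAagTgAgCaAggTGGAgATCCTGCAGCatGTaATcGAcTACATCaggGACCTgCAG
Id2: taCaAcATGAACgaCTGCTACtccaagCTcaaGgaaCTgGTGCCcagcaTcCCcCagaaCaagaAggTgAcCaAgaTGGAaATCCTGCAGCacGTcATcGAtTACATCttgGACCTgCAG
Id3: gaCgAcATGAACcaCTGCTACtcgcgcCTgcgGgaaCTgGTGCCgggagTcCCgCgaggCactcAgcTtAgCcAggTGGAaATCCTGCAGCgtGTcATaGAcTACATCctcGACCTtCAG
Id4: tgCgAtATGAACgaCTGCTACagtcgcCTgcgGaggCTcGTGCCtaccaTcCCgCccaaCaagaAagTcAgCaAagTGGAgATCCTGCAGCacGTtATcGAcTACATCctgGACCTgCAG

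All 4 genes shared 69 of the 120 bases (57.5%). Identity between pairs ran from 70.8% (Id1 with Id3, and Id3 with Id4) to 81.7% (Id1 with Id2). Over the whole transcripts, the longest run identical between Id1 and another Id gene was 11 bases for Id2, 12 bases for Id3 and 17 bases for Id4, and the longest for any pair was 19 bases, between Id2 and Id3.

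The libraries held 36234428 to 48762188 reads over 19282 to 19988 detected genes, and all carry 1 batch label. Values below are normalized counts, the read count of a gene divided by a size factor of its library. Svil itself, at chr18:4920540-5119299, had normalized counts of 4615, 3939 and 4582 in Svil-Mut, 7402, 6746 and 6656 in Svil-KO and 8686, 9373 and 8407 in WT. The 3 genotypes did not overlap. Svil fell in Svil-Mut against WT (log2 fold change -1.01, SE 0.09, limma adjusted p = 0.000941). In Svil-KO against WT its log2 fold change was -0.35 (95% interval -0.54 to -0.16, limma unadjusted p = 0.00207, limma adjusted p = 0.997). Its Svil-KO mean was 78.6% of the WT mean, so the libraries labelled Svil-KO kept most of the Svil reads. Gene-level counts cannot tell intact transcripts from altered ones. Svil was not the gene with the largest loss in Svil-Mut. Mib1, named here after its values were seen, encodes a ubiquitin ligase that Notch ligands need to signal and lies on the same chromosome, 5.75 Mb from the midpoint of Svil. It had normalized counts of 547, 623 and 496 in Svil-Mut, 9896, 4939 and 8127 in Svil-KO and 9818, 7634 and 8474 in WT. Its Svil-Mut libraries lay below all others, with log2 fold changes of -3.96 against WT (limma adjusted p = 2.64e-05) and -3.73 against Svil-KO (limma adjusted p = 4.78e-05). Whether values in Svil-Mut go with Svil or with Mib1 cannot be told apart. Among markers of other cell types, the summed red blood cell markers were 10717 to 53916 in Svil-Mut, 7080 to 11065 in Svil-KO and 9166 to 13242 in WT. The highest sum was in Svil-Mut replicate 4. Limma called 0 of these 8 markers in both Svil-Mut comparisons. At an unadjusted p under 0.05, 5 were higher against WT (median log2 fold change 1.59), beside 10% of all genes. Against Svil-KO 5 were also higher (median 2.16), beside 10.2%. Libraries did not overlap for 0 of the 8 against WT and for 5 against Svil-KO, beside 13.9% and 15.2% of all genes. Of 8 adipocyte markers, limma called 0 in Svil-Mut against WT and 0 in Svil-KO against WT. At an unadjusted p under 0.05, 4 were lower in Svil-Mut against WT (median log2 fold change -1.35), beside 10% of all genes. In Svil-KO against WT 0 were, but all 8 had log2 fold changes below 0 (median -1.275). The mean log2 levels of these markers over the WT mean were -2.63, -3.10 and 0.43 in Svil-Mut replicates 1, 2 and 4. In Svil-KO replicates 1, 3 and 4 they were -0.59, -1.53 and -0.87. All 10 markers of fibro-adipogenic progenitors and fibroblasts had log2 fold changes below 0 in Svil-Mut against WT (median -0.22), and limma called 0, with 1 at an unadjusted p under 0.05. The part of these cell types in the values of the members was not tested. Markers of fast fibres, the main fibre type of this muscle, were the most abundant of the marker lists in every library.

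Id1 was the member that differed. Id1 (ENSMUSG00000042745.9, chr2:152736251-152737410), a direct transcriptional target of BMP Smads, had normalized counts of 1575, 1527 and 1891 in Svil-Mut, 668, 635 and 744 in Svil-KO and 836, 826 and 684 in WT. All Svil-Mut libraries lay above all others, while Svil-KO and WT overlapped. Averaged over 3 libraries each (± SD), Id1 stood at 1665 ± 198 in Svil-Mut, 682 ± 56.0 in Svil-KO and 782 ± 85.0 in WT. Id1 rose in Svil-Mut against WT by 1.09 on the log2 scale (SE 0.13, 95% interval 0.80 to 1.37, limma adjusted p = 0.0143), which is 2.13-fold. It rose in Svil-Mut against Svil-KO by 1.28 (SE 0.13, interval 1.00 to 1.57, limma adjusted p = 0.00375), or 2.43-fold. In Svil-KO against WT the log2 fold change of Id1 was -0.19 (interval -0.48 to 0.09, limma adjusted p = 0.997). With edgeR the adjusted p of Id1 was 0.0151 against WT and 0.00439 against Svil-KO. A 2-sided exact permutation test of 3 against 3 libraries gave p = 0.1 for Id1 in both comparisons, the smallest that this design allows. The call against WT was lost when WT replicate 3 (limma adjusted p = 0.0639) or WT replicate 4 (limma adjusted p = 0.0932) was left out. Without the variance trend limma gave Id1 an adjusted p of 0.129 against WT and 0.0532 against Svil-KO, so both calls were lost. In whole muscle, more Id1 RNA per cell and more cells that express Id1 cannot be told apart.

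**Figure D1:**
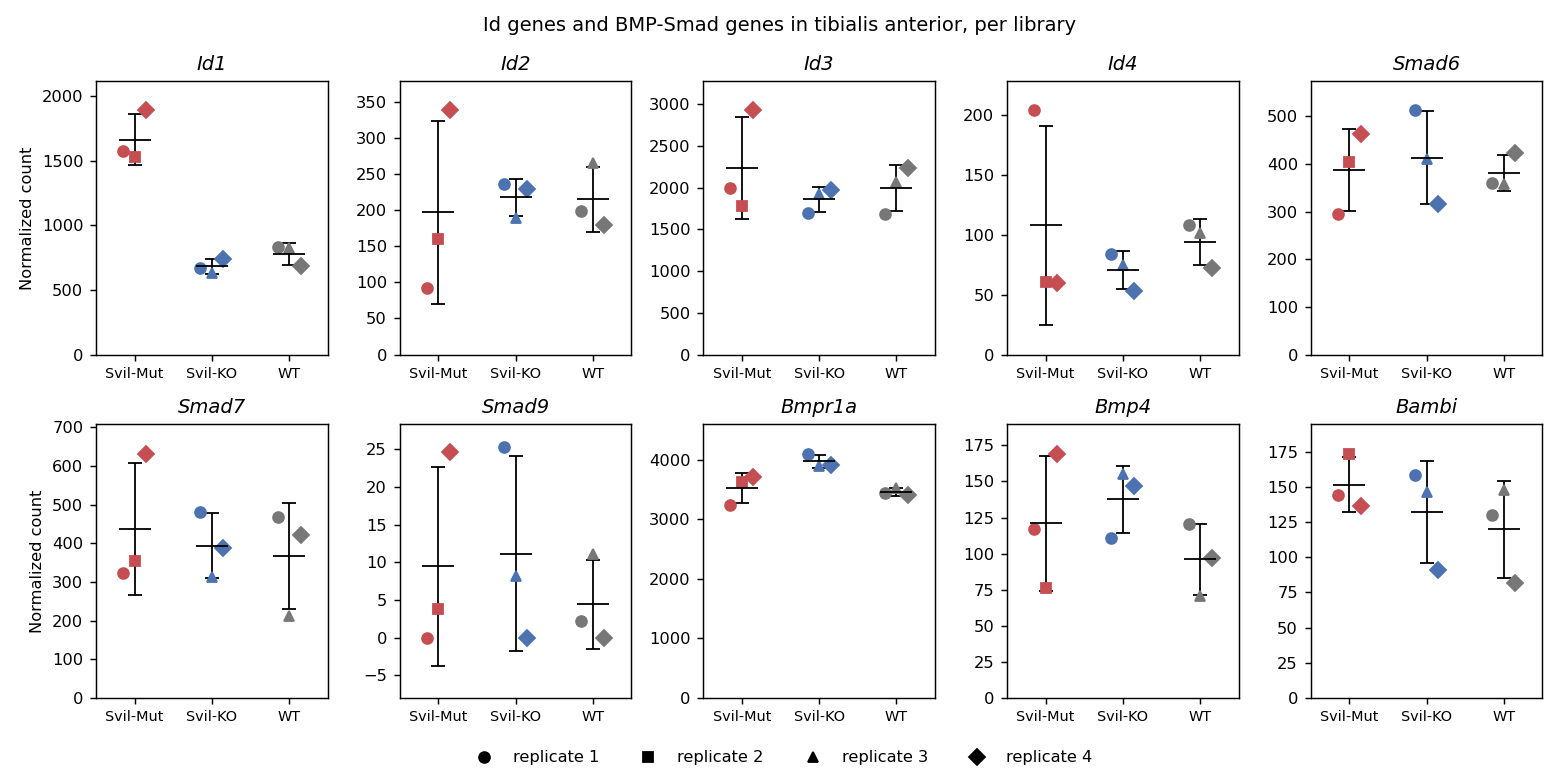
Normalized counts (y axis, linear) of the 10 genes in each library, by genotype (x axis), with points for libraries, long bars for group means and whiskers for 1 SD. The 3 Svil-Mut libraries of Id1 sit between 1527 and 1891, above the 6 others, which sit between 635 and 836.

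The share of the 10 genes that was called is given beside that of all 15279 tested genes, and all 10 passed the filter on low values. Where limma called a member below, it was Id1. The difference of Id1 was known when the set was chosen, so its call beside these shares is a description and no sign of enrichment. In Svil-Mut against WT, limma called 1 member at an adjusted p under 0.05, and 6 genes in all (0.0393%), 4 higher (0.0262%) and 2 lower (0.0131%). In Svil-KO against WT limma called 0 members and 0 genes in all (0.0%, so 0.0% higher and 0.0% lower), while 1 member and 628 genes (4.11%) had an unadjusted p under 0.05. In Svil-Mut against Svil-KO limma called 1 member, and 7 genes in all (0.0458%), 5 higher (0.0327%) and 2 lower (0.0131%). At an unadjusted p under 0.05 there were 1 member and 1533 genes (10%) in Svil-Mut against WT, and 2 members and 1556 genes (10.2%) in Svil-Mut against Svil-KO. edgeR called 0.0393%, 0.0% and 0.0458% of the genes in Svil-Mut against WT, Svil-KO against WT and Svil-Mut against Svil-KO. DESeq2 called 1.13%, 0.0262% and 1.54% in the same order.

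Libraries of the 2 genotypes did not overlap for 1 member (higher) in Svil-Mut against WT, beside 13.9% of all tested genes (7.13% higher, 6.81% lower). They did not overlap for 1 member (higher) in Svil-KO against WT, beside 10.7% of all genes (5.2% higher, 5.45% lower). In Svil-Mut against Svil-KO they did not overlap for 2 members, 1 higher and 1 lower, beside 15.2% of all genes (7.66% higher, 7.55% lower). Log2 fold changes were above 0 for 8 members in Svil-Mut against WT (49.3% of all genes), 7 in Svil-KO against WT (50.6%) and 5 in Svil-Mut against Svil-KO (48.6%). The median log2 fold changes of the 10 members were 0.20, 0.12 and 0.01 in that order, and the medians of all tested genes were within 0.01 of 0.

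**Figure D2:**
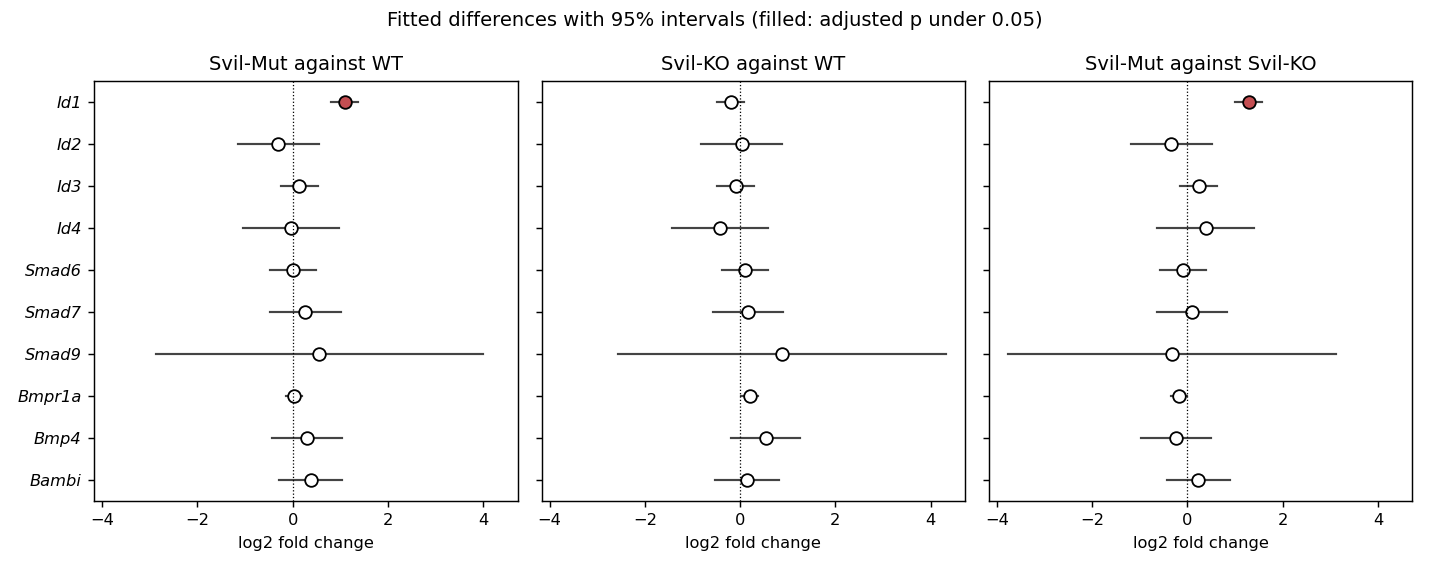
Log2 fold changes (x axis) of the 10 genes (y axis) in the 3 comparisons, with 95% intervals as lines and filled points at a limma adjusted p under 0.05. Id1 is filled in Svil-Mut against WT and in Svil-Mut against Svil-KO, and the widest interval is that of Smad9.

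The other Id genes did not pass in any comparison. Id3 (ENSMUSG00000007872.3, chr4:136143497-136145755), the most abundant of the 4, had normalized counts of 1997, 1779 and 2924 in Svil-Mut, 1689, 1919 and 1967 in Svil-KO and 1689, 2060 and 2234 in WT. Svil-Mut replicate 4 was the highest and the groups overlapped. Its log2 fold change in Svil-Mut against WT was 0.14 (95% interval -0.24 to 0.52, limma adjusted p = 0.848), -0.07 without Svil-Mut replicate 4 and 0.02 without WT replicate 1. The interval for Id3 ends below that of Id1, which starts at 0.80, but the difference between the 2 genes was not tested in this fit.

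Id2 (ENSMUSG00000020644.9, chr12:25093799-25097140) had normalized counts of 92.7, 159 and 338 in Svil-Mut, 235, 189 and 229 in Svil-KO and 199, 265 and 179 in WT. Svil-Mut held both the lowest and the highest library. For Id2 the log2 fold change in Svil-Mut against WT was -0.31 (interval -1.16 to 0.55), 0.13 when Svil-Mut replicate 1 was left out and -0.79 when replicate 4 was. Id4 (ENSMUSG00000021379.2, chr13:48261228-48266026), the least abundant Id gene, had normalized counts of 204, 60.1 and 59.6 in Svil-Mut, 83.6, 74.4 and 52.6 in Svil-KO and 108, 101 and 72.3 in WT. Svil-Mut replicate 1 was the highest and the other Svil-Mut libraries were below every WT library. The log2 fold change of Id4 in Svil-Mut against WT was -0.04 (interval -1.05 to 0.98) and -0.62 without Svil-Mut replicate 1. Exons overlap genes on the other strand over 253 bases in Id4, 290 bases in Bmpr1a and 89 bases in Bmp4. The library kit does not mark strand, so the reads of each of these 3 genes cannot be separated from those of its partners there.

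The make-up of the Id transcripts gives the same values as shares. Id1 held 40.7%, 43.3% and 36.3% of the reads of the 4 Id genes in Svil-Mut, against 25.0%, 22.5% and 24.9% in Svil-KO and 29.5%, 25.4% and 21.6% in WT. Every Svil-Mut library was above every other library. The mean share (± SD over 3 libraries) was 40.1% ± 3.6 in Svil-Mut, 24.1% ± 1.4 in Svil-KO and 25.5% ± 4.0 in WT. Since the numerator is Id1, the share was not tested as a further result. The ratio of Id1 to Id3 normalized counts averaged 0.765 in Svil-Mut, 0.368 in Svil-KO and 0.401 in WT.

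**Figure D3:**
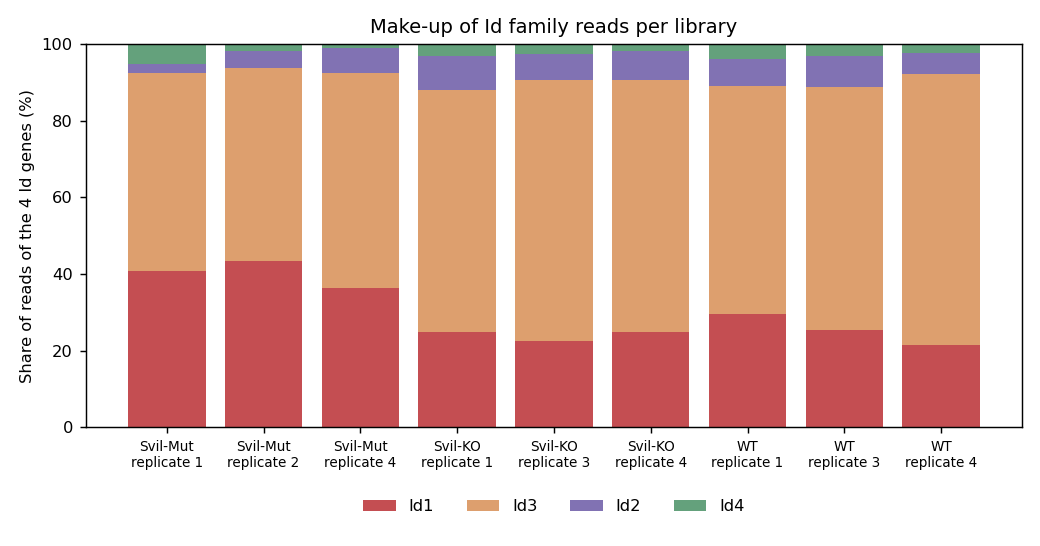
Share of the reads of the 4 Id genes (y axis, percent, stacked to 100) held by each of them in the 9 libraries (x axis). The Id1 segment is 36.3% to 43.3% in Svil-Mut and 21.6% to 29.5% in the other libraries.

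Upstream of the Smads, the ligand and the receptor showed no call. Bmp4 (ENSMUSG00000021835.15, chr14:46383520-46390669), a secreted ligand, had normalized counts of 117, 76.4 and 169 in Svil-Mut, 111, 155 and 147 in Svil-KO and 120, 70.8 and 96.8 in WT. The groups overlapped. For Bmp4 the log2 fold change was 0.29 in Svil-Mut against WT (interval -0.44 to 1.02) and 0.53 in Svil-KO against WT (interval -0.20 to 1.27). The first value was 0.01 without Svil-Mut replicate 4 and 0.09 without WT replicate 3, and the second was 0.33 without WT replicate 3.

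Bmpr1a (ENSMUSG00000021796.15, chr14:34410734-34503341), a type I BMP receptor, had normalized counts of 3238, 3625 and 3712 in Svil-Mut, 4100, 3889 and 3913 in Svil-KO and 3433, 3526 and 3402 in WT. Every Svil-KO library was above every other library, and Svil-Mut and WT overlapped. The log2 fold change of Bmpr1a in Svil-KO against WT was 0.20 (interval 0.03 to 0.37, unadjusted p = 0.0263, limma adjusted p = 0.997). In Svil-Mut against Svil-KO it was -0.17 (unadjusted p = 0.0485, limma adjusted p = 0.487), and in Svil-Mut against WT 0.03 (interval -0.14 to 0.20).

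Among the Smads, Smad9 (ENSMUSG00000027796.2, chr3:54755582-54801257), a signal-carrying BMP Smad, was near the floor. Its normalized counts were 0, 3.82 and 24.6 in Svil-Mut, 25.3, 8.15 and 0 in Svil-KO and 2.19, 11.1 and 0 in WT. It reached 10 in 1 library of each genotype, just enough to be tested, and the SE of its log2 fold change was 1.56. The libraries of Svil-Mut and of Svil-KO each spread over nearly the whole range of Smad9, and those of WT over 0 to 11.1, so no difference could be detected.

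Smad6 (ENSMUSG00000036867.7, chr9:63953076-64022059), an inhibitory Smad and a target of the pathway it dampens, had normalized counts of 294, 405 and 464 in Svil-Mut, 513, 412 and 317 in Svil-KO and 360, 357 and 424 in WT. The groups overlapped, and the log2 fold change in Svil-Mut against WT was 0.01 (interval -0.47 to 0.49). Smad7 (ENSMUSG00000025880.11, chr18:75367529-75395935), an inhibitor of both BMP and TGF-beta receptors, had normalized counts of 322, 355 and 632 in Svil-Mut, 481, 312 and 388 in Svil-KO and 467, 210 and 422 in WT. Svil-Mut replicate 4 was the highest and WT replicate 3 the lowest. The log2 fold change of Smad7 in Svil-Mut against WT was 0.27 (interval -0.47 to 1.00), -0.03 without Svil-Mut replicate 4 and -0.09 without WT replicate 3.

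Bambi (ENSMUSG00000024232.2, chr18:3507923-3516404), which encodes a receptor-like protein without a kinase, had normalized counts of 145, 174 and 136 in Svil-Mut, 158, 147 and 90.9 in Svil-KO and 130, 148 and 81.5 in WT. The groups overlapped. Bambi had a log2 fold change in Svil-Mut against WT of 0.37 (interval -0.29 to 1.04, limma adjusted p = 0.736), and 0.12 without WT replicate 4. Bambi lies 1.51 Mb from the midpoint of Svil on the same chromosome.

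Svil-Mut replicate 4 was the highest of the 9 libraries for 5 of the 10 members (Id1, Id2, Id3, Smad7 and Bmp4), while it was the highest for 16.0% of all tested genes. The part of this library's red blood cell markers in those values was not tested. Without Svil-Mut replicate 4 the log2 fold change of Id1 in Svil-Mut against WT was 0.99 (limma adjusted p = 0.0305).

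Levels between genes were compared as normalized counts per kilobase of exon, averaged over the 9 libraries. Id3 came first with 1133 ± 212, then Id1 with 899 ± 415 and Bmpr1a with 574.5 ± 44.1 (SD, n = 9). Smad6 followed with 123 ± 21.7, Smad7 with 88.2 ± 26.8, Id2 with 86.0 ± 28.4 and Bmp4 with 52.6 ± 15.2. Bambi had 26.5 ± 5.94, Id4 23.6 ± 12 and Smad9 1.56 ± 1.89. Id3 and Id1, Id1 and Bmpr1a, Smad7 and Id2, and Bambi and Id4 were neighbours in this order that differed by less than the larger of their SDs. The order of the means changed with genotype. In Svil-KO the per-kilobase level of Id1 was 588 ± 48.2, below that of Bmpr1a at 625 ± 18.2 (SD, n = 3). That gap was smaller than the SD of Id1. In Svil-Mut alone the per-kilobase level of Id1 was 1435 ± 170.5, beside 1247 ± 339 for Id3, a gap smaller than the SD of Id3. In WT the level of Id1 was 674 ± 73.3, beside 1114 ± 155.5 for Id3.

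Of 85 other genes of the BMP and TGF-beta pathways, 74 were tested and Bmp10, Gdf2, Gdf7 and Acvr1c were at 0 in every library. Limma called 0 of them in each comparison. At an unadjusted p under 0.05 there were 13 (9 higher, 4 lower) in Svil-Mut against WT, which is 17.6% of the 74 beside 10% of all tested genes. There were 6 in Svil-KO against WT (8.11%, beside 4.11% of all genes) and 8 in Svil-Mut against Svil-KO (10.8%, beside 10.2%). DESeq2 called 2 of the 74 in Svil-Mut against WT, Tob1 and Tob2, beside 1.13% of all genes. It called 1 in Svil-Mut against Svil-KO, Tob1, beside 1.54% of all genes. The median log2 fold change of the 74 genes was 0.09 in Svil-Mut against WT.

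Of the 12 tested inhibitors inside the cell and at the membrane, which include Smad6, Smad7 and Bambi, limma called 0 in Svil-Mut against WT. DESeq2 called Tob1 and Tob2 there, beside 1.13% of all genes. At an unadjusted p under 0.05 limma had 2, and all 12 had log2 fold changes above 0 in that comparison (median 0.15). Tob1, an antiproliferative protein that binds Smads, had normalized counts of 14534, 19378 and 14823 in Svil-Mut, 12331, 10648 and 9804 in Svil-KO and 10580, 9068 and 9737 in WT. Its Svil-Mut libraries were above all others, with a log2 fold change against WT of 0.72 (limma adjusted p = 0.0896). Its relative Tob2 had a log2 fold change of 0.59 (limma adjusted p = 0.283).

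Among the 4 BMP Smads, which include Smad9, Smad1 had normalized counts of 969, 1033 and 1015 in Svil-Mut, 945, 823 and 993 in Svil-KO and 811, 771 and 662 in WT. WT was below both other genotypes, with a log2 fold change of 0.43 in Svil-Mut against WT (limma adjusted p = 0.304) and 0.30 in Svil-KO against WT (limma adjusted p = 0.997). Smad5 had a log2 fold change of -0.18 and Smad4, the shared partner, 0.04 in Svil-Mut against WT. Smad5 had normalized counts of 812, 1026 and 764 in Svil-Mut, 1208, 1197 and 1212 in Svil-KO and 1107, 908 and 921 in WT. Its Svil-KO libraries were above all others. In Svil-KO against WT limma called 0 of the 4 BMP Smads. At an unadjusted p under 0.05 it had 2 higher and 0 lower there, beside 4.11% of all genes. Of the 8 tested ligands, Bmp4 among them, 5 had log2 fold changes below 0 in Svil-Mut against WT (median -0.62). Among them were Bmp5 at -0.88 and Bmp6 at -0.36. However, 0 of the 8 had an unadjusted p under 0.05 there, beside 10% of all genes. The ligands include genes near the floor, such as Bmp3 and Gdf5, with means of 20.8 and 13.8 over the 9 libraries. Of the 11 receptors, Bmpr1a among them, Acvr2a, a type II receptor, had a log2 fold change of 0.45 (limma adjusted p = 0.361).

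Of the 7 other tested BMP-Smad targets, 4 had log2 fold changes above 0 in Svil-Mut against WT. Hes1, a transcriptional repressor also driven by Notch, had normalized counts of 1580, 2982 and 877 in Svil-Mut, 1210, 555 and 695 in Svil-KO and 847, 710 and 642 in WT. Svil-Mut replicate 4 lay within the range of Svil-KO, and the log2 fold change against WT was 1.14 (limma adjusted p = 0.388). Among 10 TGF-beta targets, Ccn2, a matrix-associated growth factor gene, had normalized counts of 1615, 1014 and 1621 in Svil-Mut, 1704, 555 and 615 in Svil-KO and 584, 585 and 663 in WT. Svil-KO replicate 1 was the highest of all for Ccn2, and the log2 fold change in Svil-Mut against WT was 1.18 (limma adjusted p = 0.33). Of 14 genes of the TGF-beta and activin branch, 7 had log2 fold changes above 0 and 7 below in Svil-Mut against WT, with 1 higher and 2 lower at an unadjusted p under 0.05. Smad3, a signal-carrying Smad of that branch, had a log2 fold change of 0.50 (limma adjusted p = 0.384). The inhibin and activin subunit genes Inha and Inhba had -1.56 (limma adjusted p = 0.436) and -1.72 (limma adjusted p = 0.559), and the receptor gene Tgfbr2 had -0.45 (limma adjusted p = 0.446). Among 14 secreted antagonists, Fst, which binds activins, had a log2 fold change of -1.33 (limma adjusted p = 0.428) and Nog, which binds BMPs, 0.43 (limma adjusted p = 0.607). Of the 7 bHLH partners of Id proteins, Myod1, the myogenic regulator, had normalized counts of 2113, 3455 and 3022 in Svil-Mut, 1726, 1852 and 2115 in Svil-KO and 2028, 1811 and 1651 in WT. Its log2 fold change in Svil-Mut against WT was 0.62 (limma adjusted p = 0.292), and DESeq2 called it there (adjusted p = 0.025) and against Svil-KO (adjusted p = 0.0397). Myf5, another myogenic regulator, had normalized counts of 21.4, 11.5 and 27.4 in Svil-Mut, 40.7, 42.8 and 8.77 in Svil-KO and 50.3, 39.5 and 47.9 in WT. All Svil-Mut libraries were below all WT libraries for Myf5, with a log2 fold change of -1.23 (limma adjusted p = 0.544).

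**Figure D4:**
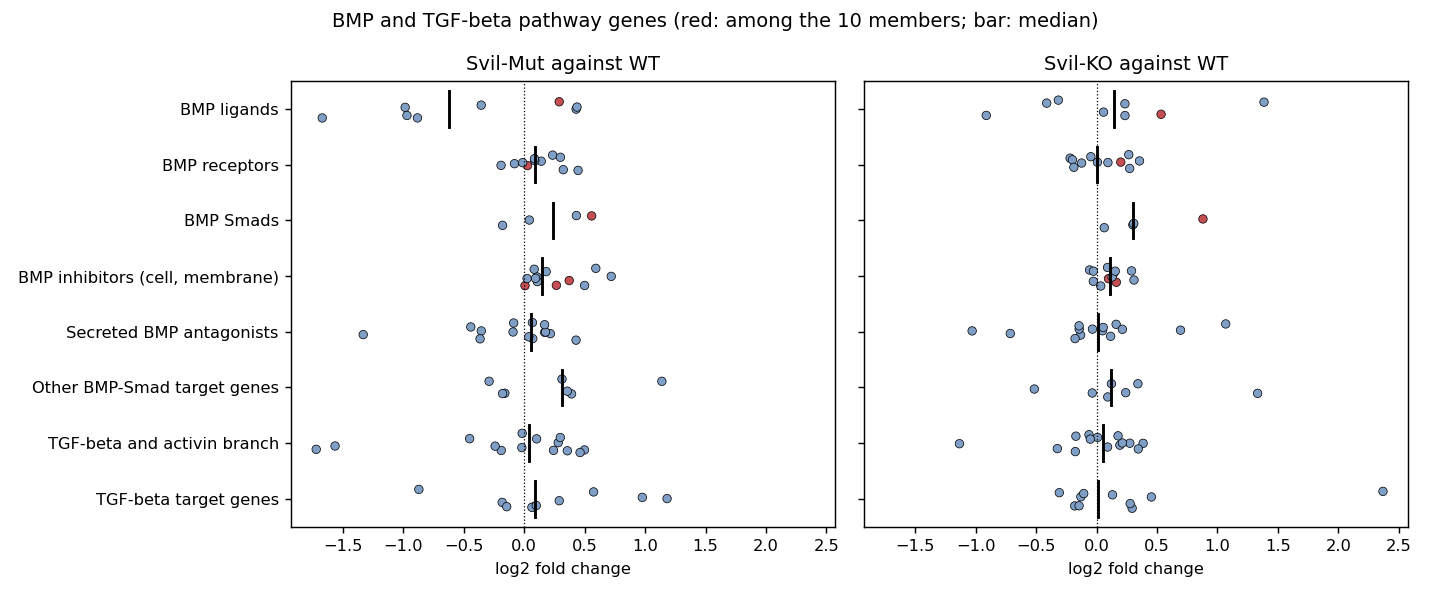
Log2 fold changes (x axis) of the tested genes of 8 pathway lists (y axis) in Svil-Mut against WT and in Svil-KO against WT, with red points for members, blue for other genes and bars for list medians. The inhibitors inside the cell and at the membrane all lie above 0 in Svil-Mut against WT, with a median of 0.15.

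The profiles most like that of Id1 were not those of other Id genes. Likeness was the root mean square difference of centred log2 values over the 9 libraries, among 10927 genes with a mean of at least 50 (median 0.62). The nearest were Gch1 (0.199), Sertad1 (0.212), Dusp1 (0.216), Adamts1 (0.220), Slc2a1 (0.243) and Ppp1r15a (0.257), while Id3 ranked 1243 (0.514). Dusp1, a phosphatase of MAP kinases, had normalized counts of 7146, 8845 and 8267 in Svil-Mut, 4404, 4572 and 4170 in Svil-KO and 4406, 4502 and 3983 in WT. Its Svil-Mut libraries lay above all others. These 6 genes were picked for a profile like that of Id1, which is high in Svil-Mut, so their differences are a description and no test is given. Their log2 fold changes in Svil-Mut against WT were 0.92 for Gch1, 0.90 for Sertad1, 0.91 for Dusp1, 0.72 for Adamts1, 0.68 for Slc2a1 and 0.67 for Ppp1r15a.

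**Figure D5:**
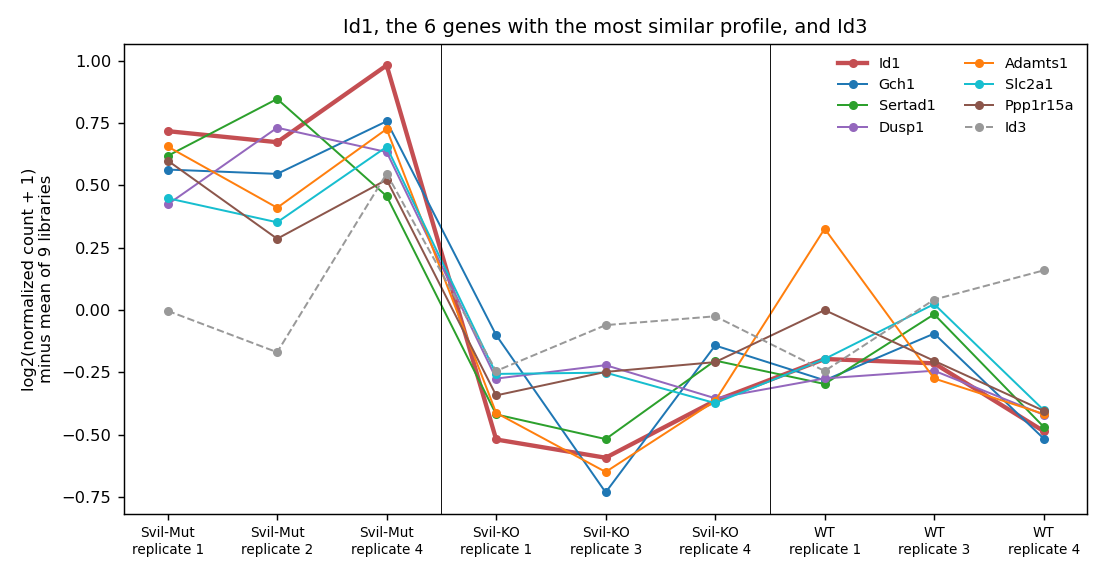
Log2(normalized count + 1) minus the mean of the 9 libraries (y axis) for Id1, the 6 genes most like it and Id3 (dashed), by library (x axis). Id1 and the 6 genes are all above their means in the Svil-Mut libraries, while of the Svil-Mut libraries only replicate 4 is above the mean for Id3.

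A list of 28 immediate early genes, which respond within minutes to many stimuli, was also higher in the Svil-Mut libraries. All 26 tested had log2 fold changes above 0 in Svil-Mut against WT (median 2.05), beside 49.3% of all tested genes. The Svil-Mut libraries lay above all WT libraries for 22 of them, beside 7.13% of all genes. Limma called 3 higher, beside 0.0262% of all genes. The list was chosen with earlier results of these data known, so these counts are a description and not independent evidence. Dusp1, described above for its profile like that of Id1, is on this list. The mean log2 level of the 26 genes over the WT mean was 2.13, 2.53 and 1.83 in Svil-Mut, and 0.90, -0.09 and -0.07 in Svil-KO. The Id1 normalized counts of the same libraries were 1575, 1527 and 1891 in Svil-Mut and 668, 635 and 744 in Svil-KO. The part of this list in the Id1 values was not tested.

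Id1 is known to be expressed in endothelial cells. All 13 endothelial markers were tested and none was at 0 in every library. Limma called 0 of them in Svil-Mut against WT, with 1 at an unadjusted p under 0.05. Their summed normalized counts were 13819 to 17663 in Svil-Mut, 13518 to 15983 in Svil-KO and 14524 to 16400 in WT. The 3 ranges overlapped. Summed slow fibre markers were 38987 to 64493 in Svil-Mut, 76226 to 120040 in Svil-KO and 80290 to 118690 in WT. The Svil-Mut sums lay below all others. Limma called 0 of the 8 in both Svil-Mut comparisons. All 8 had log2 fold changes below 0 against WT (median -0.99) and against Svil-KO (median -1.90). At an unadjusted p under 0.05 there were 2 against WT and 4 against Svil-KO, beside 10% and 10.2% of all genes. The part of the endothelial and slow fibre markers in the Id1 values was not tested.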

How the data were processed

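Per the labels' protocols, full-length cDNA was primed with oligo(dT), amplified with a SMARTer low-input kit and tagmented with Nextera XT. Per the submitters' processing notes, HISAT2, featureCounts and DESeq2 were used on mm10, with no versions named. The authors deposited a signal per gene, which is reads over a size factor of each library. Of the nonzero values, 100% in each library came out as whole reads within 0.001 (a tolerance that grows in proportion above 1000 reads). Without molecular identifiers, reads may be PCR copies of 1 molecule.

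Genotypes were compared with limma on log2(normalized count + 1), with a mean-variance trend, no covariate and all 9 libraries fitted together. The 15279 genes that reached 10 in at least 3 libraries were tested. Fold changes are on this scale, which understates low genes, and calls are at a Benjamini-Hochberg adjusted p under 0.05 over all tested genes. On the recovered reads, edgeR's quasi-likelihood test and DESeq2 were alternatives, beside other pseudocounts, filters, normalizations, variance models, a replicate block and leaving out each library. The members and gene lists were chosen with earlier results of these data known. Named genes follow a rule: the members, Svil, the 6 genes most like Id1 and, per pathway list, up to 4 with the smallest unadjusted p in Svil-Mut against WT, of which part are printed. Mib1 falls outside it. Positions and sequences came from GENCODE M21, which matched 86.6% of symbols and need not be the annotation used for counting. On simulated counts of Svil-Mut against WT (14840 genes), limma called 50% of genes changed 2-fold and 72.7% of those changed 4-fold. Of its calls, 4.9% were false. More genes were changed there than limma called in the real libraries, and noise was independent between genes. The 50% may therefore be too high for the real libraries. Python 3.11.15 was used with R 4.3.3 and its packages edgeR 4.0.16, limma 3.58.1 and DESeq2 1.42.0.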

Additional observations from a re-analysis of the deposited data

Results flagged for a closer look

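The effect of Svil-Mut on Id1 was larger than that of Svil-KO, both against the same WT libraries. The 2 effects differed by 1.28 on the log2 scale (limma adjusted p = 0.00375), which is the comparison of Svil-Mut with Svil-KO itself. Id1 was among the values that led to the choice of these genes, so this is a description.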

How the results depend on the processing

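The log2 fold change of Id1 kept its sign in all 23 alternatives, at 0.99 to 1.15 in Svil-Mut against WT and 1.19 to 1.35 in Svil-Mut against Svil-KO. The count of members called was 1 in Svil-Mut against WT and 0 without a variance trend (Id1 limma adjusted p = 0.129), and 0 to 1 on leaving out 1 library. In Svil-Mut against Svil-KO it was 1, 0 without a variance trend (limma adjusted p = 0.0532), and 1 to 1 on leaving out 1 library. Same-numbered libraries correlated at -0.06 to 0.04 in their deviations, and libraries with different numbers at -0.04 to 0.06. No shared effect of the number was seen, but such correlations cannot show whether the numbers pair the mice. With the replicate block the count of members was 0 in both comparisons (Id1 limma adjusted p = 0.110 and 0.0695). Only Svil-Mut has a replicate 2, so the block fits that library by itself and takes it out of the comparison. The block also leaves less information to estimate the spread, so the lost calls cannot be read as an effect of pairing. In Svil-KO against WT 0 members were called in all 23 alternatives. The count over all genes in Svil-Mut against WT was 6, and became 19 with a pseudocount of 10, 16 with a stricter filter, 16 with robust variance estimation, 14 with only the 2 genotypes compared, 172 with DESeq2, 20 at an adjusted p under 0.10 and 4 to 18 on leaving out 1 library. In Svil-Mut against Svil-KO it was 7, and became 212 with DESeq2, 19 at an adjusted p under 0.10 and 4 to 13 on leaving out 1 library. In Svil-KO against WT it was 0, and 4 with DESeq2. Of the other pathway genes, 0 were called in Svil-Mut against WT, and 2 with DESeq2, 1 at an adjusted p under 0.10 and 0 to 1 on leaving out 1 library (Tob2, without Svil-Mut replicate 1). In Svil-Mut against Svil-KO 0 were called, and 1 with DESeq2. The causes were not tested. With 3 mice per genotype and a wide spread, no difference of Id2, Id4 or Smad9 could be detected.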
